A study of Oryza sativa with 36 samples.

Results

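The drought response of young panicles was measured in EMATAYIN, a drought tolerant japonica rice variety, by setting 3 drought-stressed arrays against 3 well watered arrays. These 6 arrays are all the EMATAYIN arrays among the 36 of the series, in which 30 arrays cover 5 other varieties in the same way. The study classes MILT1444, DOURADOAGULHA and HUHAN3 of these as drought tolerant, and KHAUMEO and NIPPONBARE as drought sensitive. It lists DOURADOAGULHA and KHAUMEO as indica and the others as japonica. Drought was imposed late in tillering by removing the water from cement-walled plots, and the treatment lasted 2 weeks. The well watered group was kept watered. Total RNA came from whole young panicles 2 cm long, and it was read on the Rice Genome Array of Affymetrix, which measures most genes through 1 or more probe sets, each a group of short probes. The methods describe the 3 arrays of a group as independent experiments. The p values rest on the spread between arrays of the same group, pooled over all 12 groups of the 36 arrays. A single variety in a single set of plots stands for the genotype. A panicle holds many cell types, so that fewer cells of a type and less RNA per cell cannot be told apart.

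Abscisic acid is the main hormone of drought in plants. Its receptors bind the hormone and then block protein phosphatases of type 2C (PP2C), which frees the SAPK kinases to switch on bZIP transcription factors. Among the target genes are the dehydrins and other late embryogenesis abundant (LEA) proteins, which protect membranes and proteins in drying cells, and the hormone is removed by abscisic acid 8'-hydroxylases. Auxin acts through Aux/IAA proteins, repressors that are destroyed when auxin is present, and expansins loosen the cell wall during growth.

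The arrays were checked as panicle tissue and against each other. All 12 floral organ identity markers and all 3 meiosis markers lay above the array median in 6 of 6 arrays. Of the markers of other tissues, 2 of 4 from the tapetum, 3 of 4 from green tissue and 0 of 2 from root did so in every array. The summed intensity of the green tissue markers was 5996 to 10847 in the drought-stressed arrays and 8753 to 11108 in the well watered arrays, and that of the root markers, NAS1 and LSI1, was 61.6 to 79.0 and 57.9 to 103. The median intensity per array lay between 56.5 and 60.8. Well watered replicate 3 stood apart. It correlated at 0.986 to 0.988 with the other well watered arrays and at 0.987 to 0.990 with the drought-stressed arrays, and 1112 probe sets differed in it by at least 2-fold from the mean of its group's other arrays, against 333 to 656 in the other 5 EMATAYIN arrays. Such arrays were not rare in the series, since the same count was 214 to 1590 over the 30 arrays of the other varieties, and 4 of these exceeded 1112.

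A small set of genes passed the test in EMATAYIN, most of them higher under drought. Among 57194 probe sets, 29 rose (0.0507%) and 7 fell (0.0122%) at an adjusted p of at most 0.05 by limma with at least a 2-fold change, and these are the probe sets referred to as called. The widest falls, 21.6-fold and 20.0-fold, were those of a noncoding RNA gene, LOC4331496, and of LOC_Os03g03724. The rises reached 9.66-fold and took in an ERF transcription factor, an LEA protein, the small heat shock protein HSP16.9A, the aquaporin PIP1-3, the nitrate reductase NIA1, the abscisic acid 8'-hydroxylase ABA8OX2 and the auxin repressor IAA18. In all 36 called probe sets the drought-stressed and well watered arrays did not overlap. The groups were also apart, with no test, in 4665 probe sets that were higher (8.16%) and 4723 that were lower (8.26%), so that non-overlap alone was common. The exact permutation test of 3 arrays against 3 cannot give a p below 0.1, and the number of arrays limits the precision of every value here. A 2-fold change without regard to p was reached by 318 probe sets upward and 49 downward, and 307 of these 2-fold changes had an unadjusted p below 0.05. At that unadjusted p without a fold threshold, 3342 probe sets were higher (5.84%) and 3435 lower (6.01%), which is the background for the counts at unadjusted p given for gene lists. With no threshold at all, 26915 probe sets had a log2 change above 0 and 30279 below 0, which is the background for counts by sign.

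**Figure D1:**
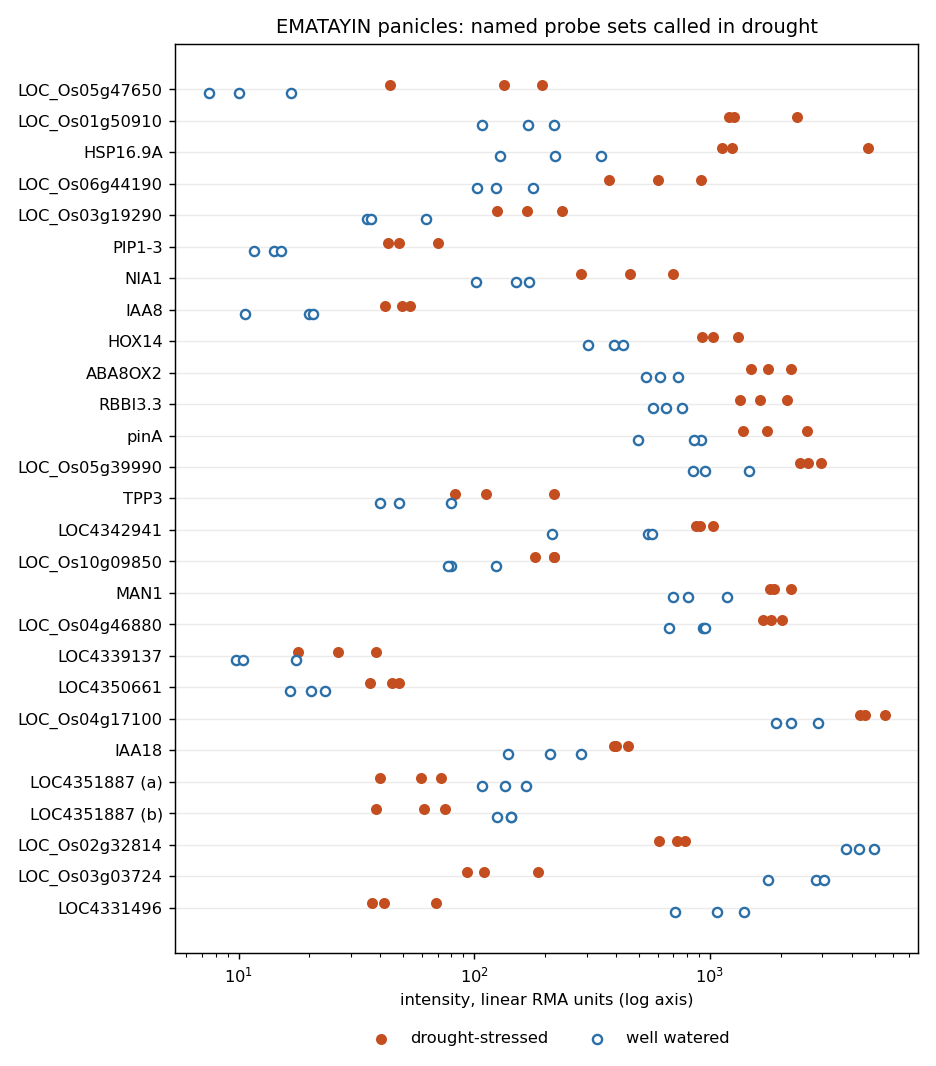
Intensity on a log axis (linear RMA units) of each named probe set called in EMATAYIN, with 1 point for each of the 3 drought-stressed and 3 well watered arrays; (a) and (b) are the 2 probe sets of LOC4351887. In every row the drought-stressed and well watered points are apart, and the widest gaps are those of LOC4331496 and LOC_Os03g03724 at the lower end.

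Of the 7 falls, 4 were called under every alternative processing and every left-out array. The PCR primers that the study's primer table lists for 2 of these loci are shown as the sequences under those names. They are printed 5' to 3' without capitals, and they were not matched to a genome here. The gene descriptions in that table may be shifted between rows, since LOC_Os02g32814 is a heat shock protein there and a copper chaperone homolog in another table, so which transcript each pair reads was not tested.
LOC_Os03g03724 forward: gcagtggattcaggacaacg
LOC_Os03g03724 reverse: cgcatctaatccccgatctg
LOC_Os02g32814 forward: aaagacagggaagaagacctcc
LOC_Os02g32814 reverse: agcttcagcttcagcttcagc
LOC_Os03g03724, a locus of chromosome 3 with no stated function, had intensities of 110, 186 and 93.0 in drought-stressed panicles, against 2819, 3054 and 1769 in well watered panicles. Every drought-stressed array was far below every well watered one, and the log2 change was -4.33 ± 0.58 (SE, limma adjusted p = 0.000579).

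LOC4331496, annotated by RefSeq as a long noncoding RNA gene on chromosome 3, had 41.5, 68.6 and 36.9 under drought, against 1396, 1073 and 708 with water. The groups were again far apart, and the log2 change was -4.43 ± 0.56 (limma adjusted p = 0.000208). Whether this probe set and that of LOC_Os03g03724, on the same chromosome, read separate transcripts was not tested. LOC_Os02g32814 on chromosome 2, with that doubt on its description, had 606, 784 and 728 under drought, against 4951, 3777 and 4303 with water. Its log2 change was -2.62 ± 0.25 (limma adjusted p = 3.46e-06), with little spread inside either group. Copper chaperones carry copper to the proteins that need it. Of 15 genes of a copper list, 0 were called, with 2 higher and 1 lower at an unadjusted p below 0.05 by limma, and their median log2 change was 0.06 beside -0.02 for all probe sets.

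A probe set without a gene name fell by 3.98 on the log2 scale, at 23.0, 21.1 and 14.3 in drought-stressed panicles and 311, 239 and 371 in well watered panicles. Both probe sets of LOC4351887 on chromosome 12, of unstated function, fell more mildly. The first had 40.0, 59.2 and 72.6 in drought-stressed panicles, against 108, 135 and 166 in well watered panicles, with a log2 change of -1.27 ± 0.20 (limma adjusted p = 0.00516). The second gave -1.29 ± 0.20. The remaining fall was that of a further unnamed probe set, which was dim in both groups, at 7.48 to 11.2 under drought and 19.4 to 20.9 with water.

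Genes of the abscisic acid pathway were mostly higher under drought, but few passed the test. ABA8OX2, which encodes an abscisic acid 8'-hydroxylase, had intensities of 2216, 1768 and 1488 in drought-stressed panicles, against 534, 732 and 613 in well watered panicles. The lowest drought-stressed array was well above the highest well watered one, and the log2 change was 1.53 ± 0.25 (limma adjusted p = 0.00651). The call was lost without drought-stressed replicate 1 (adjusted p = 0.0663) and without well watered replicate 1 (0.0775). Its paralog ABA8OX1 was scattered, at 213, 543 and 600 under drought and 1716, 745 and 177 with water, and the groups overlapped. The zeaxanthin epoxidase gene ZEP, which acts early in the synthesis of the hormone, had a log2 change of 0.22 (limma adjusted p = 0.589).

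Upstream of the targets, the 1 receptor gene found by symbol, PYL11, had a log2 change of 0.43 (limma adjusted p = 0.373). Only 3193 of 57194 probe sets carry a symbol or synonym, so other receptor genes may be among the rest. Of 8 PP2C genes 0 were called, while 5 were higher at an unadjusted p below 0.05, against 5.84% of all probe sets, 4 had higher groups that did not overlap, against 8.16% of all, and the median log2 change was 0.67. PP2C08 lay just outside the threshold. It had 3197, 1952 and 1449 in drought-stressed panicles, against 699, 775 and 932 in well watered panicles, with groups well apart and a log2 change of 1.39 ± 0.29 (limma adjusted p = 0.0501, and 0.0284 without well watered replicate 3). PP2C68, PP2C30 and PP2C09 followed with log2 changes of 1.13, 0.86 and 0.73 and limma adjusted p values of 0.408, 0.349 and 0.243. All 10 SAPK kinase genes had log2 changes above 0, with a median of 0.26, but 0 were called. At an unadjusted p below 0.05, 3 were higher, against 5.84% of all probe sets. SAPK10 gave 0.95 (limma adjusted p = 0.102). For SAPK9 the value was 0.71 (limma adjusted p = 0.533), with overlapping groups, and it dropped to 0.22 without well watered replicate 3. Among 4 bZIP and related factors of the pathway 0 were called, and the farthest from 0 was BZIP23 at 0.59 (limma adjusted p = 0.259).

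Among the targets, the LEA protein gene LOC_Os01g50910 on chromosome 1 rose. Its intensities were 2345, 1259 and 1200 in drought-stressed panicles, against 217, 108 and 169 in well watered panicles. The groups were widely apart, and the log2 change was 3.27 ± 0.54 (limma adjusted p = 0.00866), a 9.64-fold rise. Without drought-stressed replicate 1 or well watered replicate 2 the adjusted p was 0.0741 and 0.0763. No dehydrin passed the test. Of the 9 genes of the LEA and dehydrin list, 0 were called, and 7 were higher at an unadjusted p below 0.05, against 5.84% of all probe sets. In 8 the drought-stressed arrays were all above the well watered ones, against 8.16% of all probe sets. The median log2 change was 1.16 beside -0.02 for all probe sets.

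RAB21, a dehydrin gene, had 938, 354 and 326 under drought, against 66.9, 72.9 and 52.7 with water. All drought-stressed arrays were above all well watered ones, but drought-stressed replicate 1 was far above the other drought-stressed arrays, and the log2 change was 2.91 ± 0.69 (limma adjusted p = 0.0911). RAB16B had 639, 346 and 392 under drought, against 82.2, 101 and 73.4 with water, with a log2 change of 2.38 ± 0.67 (limma adjusted p = 0.147). The dehydrin RAB16C gave 1.72 (limma adjusted p = 0.279) and RAB25 1.11 (limma adjusted p = 0.365). LEA3 was at 1.16 (limma adjusted p = 0.276) and PM1 at 2.00 (limma adjusted p = 0.164). PM1 is counted in the LEA and dehydrin list, although it encodes a membrane protein of the PM19 kind rather than a LEA protein. Little difference was measured for EM, at 39.2, 34.5 and 34.4 under drought and 34.4, 29.9 and 24.0 with water, or for RAB16D, with a log2 change of 0.13.

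**Figure D2:**
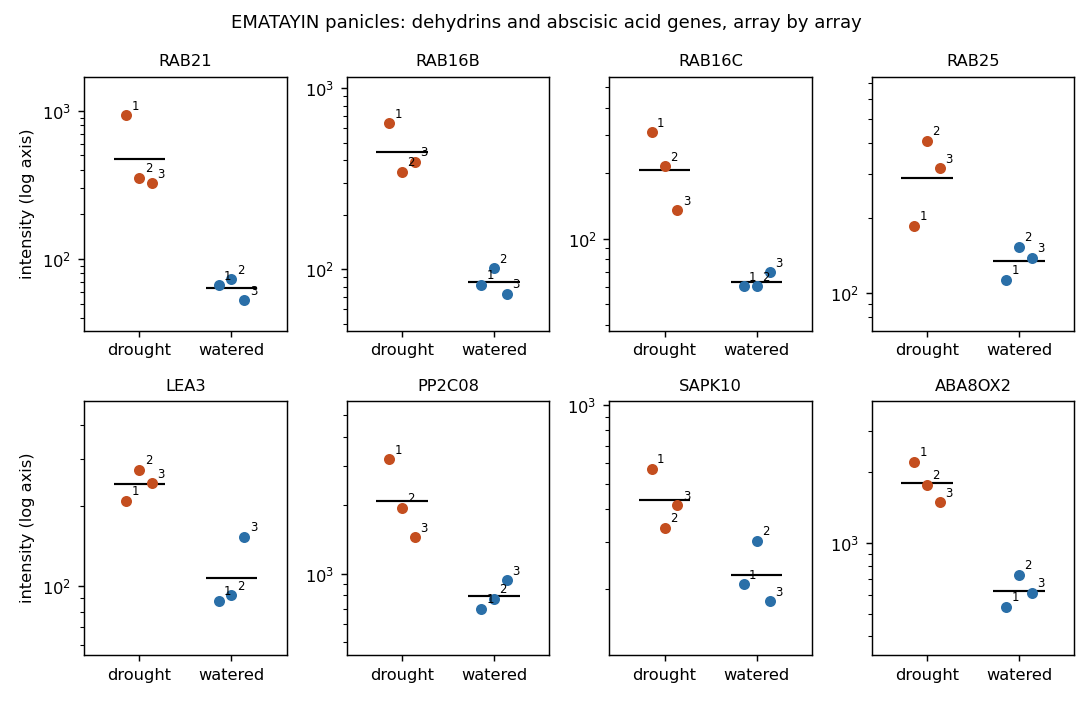
Intensity on a log axis of abscisic acid pathway genes in the 3 drought-stressed and 3 well watered EMATAYIN arrays, where the figure beside a point is its replicate number and black lines are geometric means. ABA8OX2 passed the test, and the dehydrin RAB21 had groups apart with a wide spread under drought.

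Transcription factors and protein protection genes gave a few separate rises. LOC_Os05g47650, an ERF domain factor gene on chromosome 5, had 193, 43.9 and 134 in drought-stressed panicles, against 10.1, 16.7 and 7.51 in well watered panicles. Drought-stressed replicate 2 was the lowest of its group and still above all the well watered arrays, and the log2 change was 3.27 ± 0.61 (limma adjusted p = 0.0202). The low well watered intensities make this fold imprecise. With 50 added to each intensity before the log, the change was 1.40 and was no longer called. The call was also lost without drought-stressed replicate 1 or 3 (limma adjusted p = 0.166 and 0.066) and without well watered replicate 1 (0.144).

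HSP16.9A, a small heat shock protein gene on chromosome 1 whose product holds unfolding proteins in solution, had 1131, 4686 and 1235 under drought, against 128, 221 and 347 with water. Drought-stressed replicate 2 was far above the others of its group, and the log2 change was 3.13 ± 0.65 (limma adjusted p = 0.047). Without drought-stressed replicate 1, 2 or 3 the adjusted p was 0.0798, 0.2 and 0.0625, without well watered replicate 1 or 2 it was 0.337 and 0.137, and with quantile normalization it was 0.0693. HSP16.9B followed the same arrays, with 465, 1417 and 667 under drought and 127, 219 and 434 with water, and a log2 change of 1.73 (limma adjusted p = 0.144, and 0.0376 without well watered replicate 3). Near-identical small heat shock genes may share probes. Of the 23 heat shock protein genes listed 1 was called, and the median log2 change was 0.13. Among 20 heat shock factors 0 were called and 2 were higher at an unadjusted p below 0.05, and HSFC2A had a log2 change of 1.65 (limma adjusted p = 0.169). HOX14, a homeodomain leucine zipper factor gene on chromosome 7, had 1314, 930 and 1027 under drought, against 393, 426 and 303 with water. Its groups were cleanly apart, with a log2 change of 1.54 ± 0.31 (limma adjusted p = 0.0361, and 0.0647 to 0.209 without any 1 of the arrays other than well watered replicate 3), and it was the 1 called gene of 42 homeobox genes, whose median was 0.06. Of 15 stress NAC and DREB factor genes 0 were called and 1 was higher at an unadjusted p below 0.05, with NAC071 at 1.03 (limma adjusted p = 0.29).

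Water, nitrogen and sugar genes each had a single called member. PIP1-3, a water channel of the plasma membrane encoded on chromosome 2, had 70.1, 42.9 and 48.2 in drought-stressed panicles, against 14.2, 11.6 and 15.1 in well watered panicles. The groups were well apart at dim intensities, with a log2 change of 1.95 ± 0.41 (limma adjusted p = 0.047). With 50 added before the log the change was 0.70 and was not called, and without any 1 of the arrays other than well watered replicate 3 the adjusted p was 0.0685 to 0.239. It was the 1 called gene of 25 aquaporins, whose median log2 change was 0.02. NIA1, a nitrate reductase gene on chromosome 8, had 460, 697 and 283 under drought, against 170, 101 and 150 with water. All drought-stressed arrays were above the well watered ones, with a log2 change of 1.71 ± 0.32 (limma adjusted p = 0.0202), but a dimmer probe set of the same gene gave -0.48 (limma adjusted p = 0.57). The call was lost without drought-stressed replicate 1 or 2 (0.0984 and 0.125) and without well watered replicate 1 or 2 (0.059 and 0.137). The other 15 of 16 nitrogen assimilation genes were not called.

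TPP3, a trehalose 6-phosphate phosphatase gene on chromosome 7, had 219, 112 and 82.7 under drought, against 47.9, 40.0 and 79.5 with water. Drought-stressed replicate 3 was barely above well watered replicate 3, and the log2 change was 1.25 ± 0.26 (limma adjusted p = 0.047). The change was 1.53 without well watered replicate 3 (limma adjusted p = 0.0073), but the call was lost without drought-stressed replicate 1 or 2 (0.304 and 0.0809) and without well watered replicate 1 or 2 (0.3 and 0.219). Of 14 genes for osmolyte synthesis TPP3 alone was called, and P5CS2, which makes proline, was at 0.46 (limma adjusted p = 0.362). MAN1, a mannan hydrolase gene on chromosome 1, had 2203, 1791 and 1879 under drought, against 695, 806 and 1181 with water, with a log2 change of 1.16 ± 0.22 (limma adjusted p = 0.0277, and 0.0587 to 0.271 without any 1 of the arrays other than well watered replicate 3).

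Auxin and cell wall genes rose in small number, by 2.04-fold to 2.93-fold. IAA18, an Aux/IAA repressor gene on chromosome 5, had 398, 392 and 450 in drought-stressed panicles, against 139, 209 and 283 in well watered panicles. The drought-stressed arrays were close together and all above the well watered ones, with a log2 change of 1.03 ± 0.19 (limma adjusted p = 0.0219, and 0.0587 to 0.284 without any 1 of the arrays other than well watered replicate 3). One probe set of IAA8 rose by 1.55 ± 0.28 (limma adjusted p = 0.0176), at 49.5, 53.4 and 41.9 under drought and 10.7, 19.9 and 20.7 with water, but the brighter probe set of that gene gave 0.17 (limma adjusted p = 0.79). The call was lost without drought-stressed replicate 1 or 2 (0.0797 and 0.0784) and without well watered replicate 1 (0.196). Of 26 Aux/IAA genes 22 had a log2 change above 0, with a median of 0.27. IAA26 was at 1.08 (limma adjusted p = 0.201).

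LOC_Os05g39990, described in the study's table as the alpha-expansin OsEXPA4, had 2973, 2615 and 2423 in drought-stressed panicles, against 848, 953 and 1461 in well watered panicles. The groups were apart, with a log2 change of 1.33 ± 0.24 (limma adjusted p = 0.0189), while another probe set that the platform names EXPA4 gave -0.11, and which of them reads that gene was not tested. The call was lost without drought-stressed replicate 1 or 2 (0.116 and 0.0587) and without well watered replicate 1 or 2 (0.192 and 0.108). Of the 29 expansin genes listed by symbol 0 were called, and 10 were higher at an unadjusted p below 0.05, against 5.84% of all probe sets. Their median log2 change was 0.21. EXPB11 had 1045, 864 and 750 under drought, against 221, 364 and 377 with water, with a log2 change of 1.49 (limma adjusted p = 0.058). EXPA2, EXPA5 and EXPA6 had log2 changes of 1.41, 1.24 and 1.03. Well watered replicate 3 held the highest intensity of its group in each of these expansins. Without it 6 of 29 were called higher (EXPB11, EXPA2, EXPA5, EXPA6, EXPA29 and EXPB6), against 0.194% of all probe sets. EXPB6 was at 1.25 (limma adjusted p = 0.0006). Leaving out the highest well watered value raises the change by construction.

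**Figure D3:**
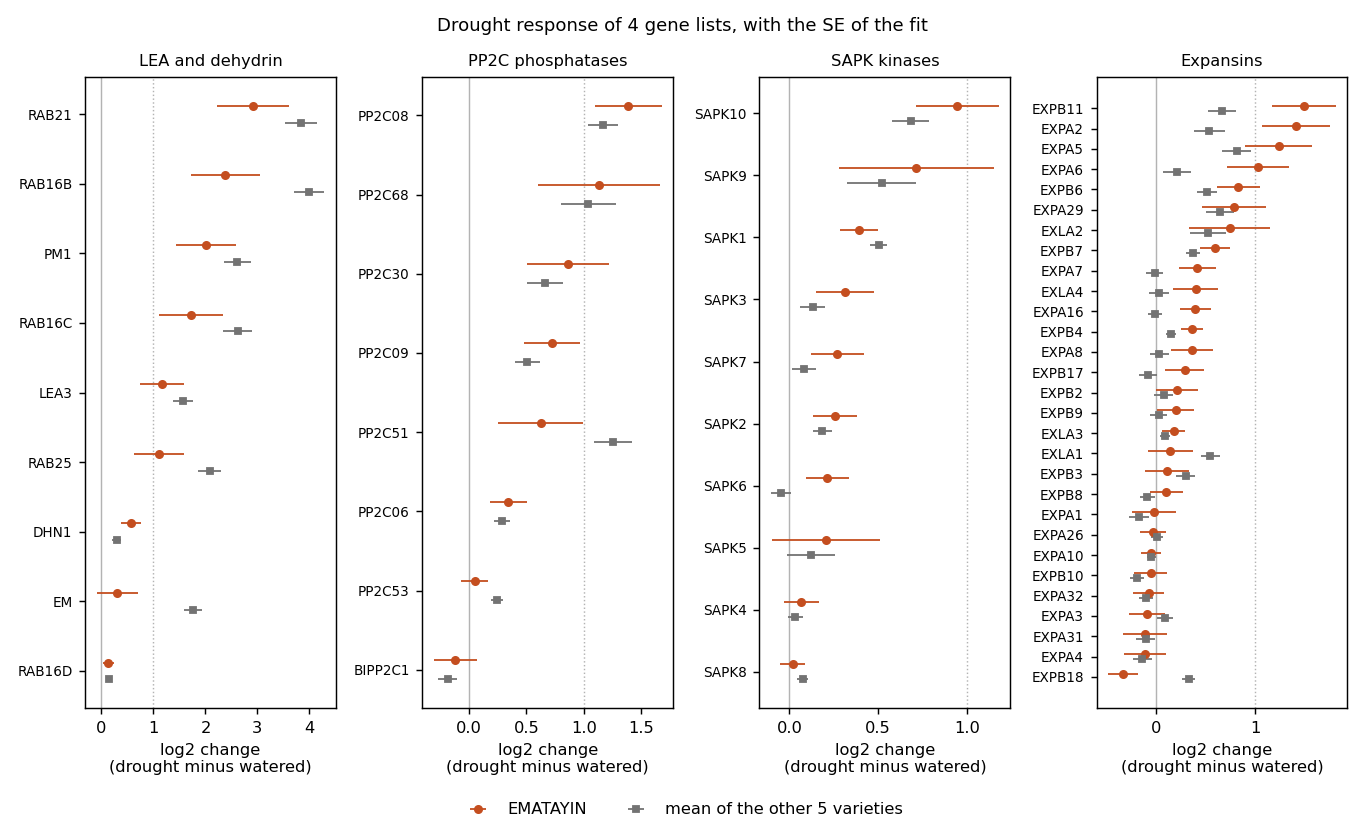
Log2 change, drought-stressed minus well watered, with the SE of the fit, of the members of 4 gene lists in EMATAYIN and in the mean of the other 5 varieties; the dotted line marks a log2 change of 1. Most dehydrin points of EMATAYIN lie right of the line with wide error bars, and the expansins lie on both sides of 0 with a median of 0.21.

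The other called genes with a name were a protease inhibitor gene and several of unstated function. RBBI3.3, whose name in RefSeq's synonyms is that of a Bowman-Birk inhibitor, had 1638, 1346 and 2130 under drought, against 762, 652 and 573 with water, with a log2 change of 1.35 ± 0.23 (limma adjusted p = 0.0124). Without drought-stressed replicate 1 or 3 or well watered replicate 2 the adjusted p was 0.0663, 0.0626 and 0.0561. For pinA, its near neighbour on chromosome 1, the log2 change was 1.33 (limma adjusted p = 0.0421, and 0.0712 to 0.138 without any 1 of the arrays other than drought-stressed replicate 2). LOC_Os06g44190 rose by 2.18 and LOC_Os03g19290 by 1.98 on the log2 scale (limma adjusted p = 0.0185 and 0.0423). Without drought-stressed replicate 1, for example, these were 0.159 and 0.0718. Smaller rises, of 1.06 to 1.21, were found for LOC4342941, LOC_Os10g09850, LOC_Os04g46880 (a major facilitator family transporter), LOC4339137, LOC4350661 and LOC_Os04g17100 (a heavy metal domain protein). The 7 called probe sets without a gene name that rose were led by one with a log2 change of 2.65 (limma adjusted p = 1.57e-05). It had 1018, 1007 and 850 under drought, against 117, 161 and 187 with water, with little spread in either group.

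No gene listed for DNA replication, the cell cycle, floral organs, panicle branching, meiosis or cytokinin was called. Of 18 DNA replication genes 0 were called, but 16 had a log2 change below 0 and the median was -0.26. At an unadjusted p below 0.05, 5 were lower, against 6.01% of all probe sets. ORC3, a subunit of the origin recognition complex, had 239, 325 and 258 in drought-stressed panicles, against 527, 398 and 565 in well watered panicles, with a log2 change of -0.85 (limma adjusted p = 0.147). None of the 35 cyclin and kinase genes was called (0, with 2 higher and 1 lower at an unadjusted p below 0.05), and the median was 0.06. The median log2 change was 0.03 over 21 floral organ MADS genes, 0.11 over 14 panicle branching genes and 0.04 over 13 meiosis genes, with 0 called in each and 1, 2 and 2 higher and 1, 0 and 1 lower at an unadjusted p below 0.05. Cytokinin oxidases break down cytokinin, which sustains meristem growth. CKX4 had 55.7, 43.1 and 42.1 under drought, against 30.2, 26.6 and 28.6 with water, which passed the p threshold but not the 2-fold one (log2 change 0.71, limma adjusted p = 0.0312), and CKX5 was at 1.18 (limma adjusted p = 0.125).

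The same genes were then set beside the mean of the 5 other varieties. All 29 called rises and all 7 called falls had the same sign in that mean, and 31 had the same sign in each of the 5 varieties. In 33 of 36 the mean had a limma adjusted p of at most 0.05. Without a fold threshold, 22898 of 57194 probe sets reached that adjusted p in the mean, in either direction. The first probe set of LOC4351887, counted among the falls, was at -0.0047 there (limma adjusted p = 0.973). The median log2 change of the 29 rises was 1.33 in EMATAYIN and 0.98 in the others, and that of the 7 falls was -2.62 and -2.40. EMATAYIN chose these probe sets, so its values for them are given as a description. The other varieties' mean, which draws on 30 arrays, had 198 rises (0.346%) and 38 falls (0.0664%), and 14 of the 29 and 4 of the 7 were called in it. Chosen in the other direction, the 198 probe sets that rose in the others had a median log2 change of 1.08 in EMATAYIN and 1.26 in the others, and 197 of them were above 0 in EMATAYIN. The 38 that fell in the others had a median of -0.49 in EMATAYIN and -1.25 in the others, and 25 of them were below 0 in EMATAYIN. Of all 57194 probe sets, 26915 were above 0 and 30279 below 0 in EMATAYIN.

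Taken 1 variety at a time, EMATAYIN had the fewest calls, 36, against 180 to 383 in each of the others. A call count depends on the spread as well as on the change, and the difference in counts was not tested. Single genes differed in size between EMATAYIN and the rest, but not past the test. LOC_Os03g03724 fell by 4.33 in EMATAYIN and by 4.47 in the others' mean, and LOC4331496 fell by 4.43 and 4.68. RAB25 was at 1.11 in EMATAYIN and 2.08 in the others, RAB16B at 2.38 and 3.99, and EM at 0.30 and 1.76. In the others' mean 7 of the 9 genes of the LEA and dehydrin list were called higher, against 0.346% of all probe sets. That mean draws on 30 arrays and has smaller SEs, as for RAB21 with 0.31, against 0.69 in EMATAYIN. Its calls and those of EMATAYIN are therefore not at like precision. IAA8 was at 1.55 in EMATAYIN and 0.32 in the others.

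**Figure D4:**
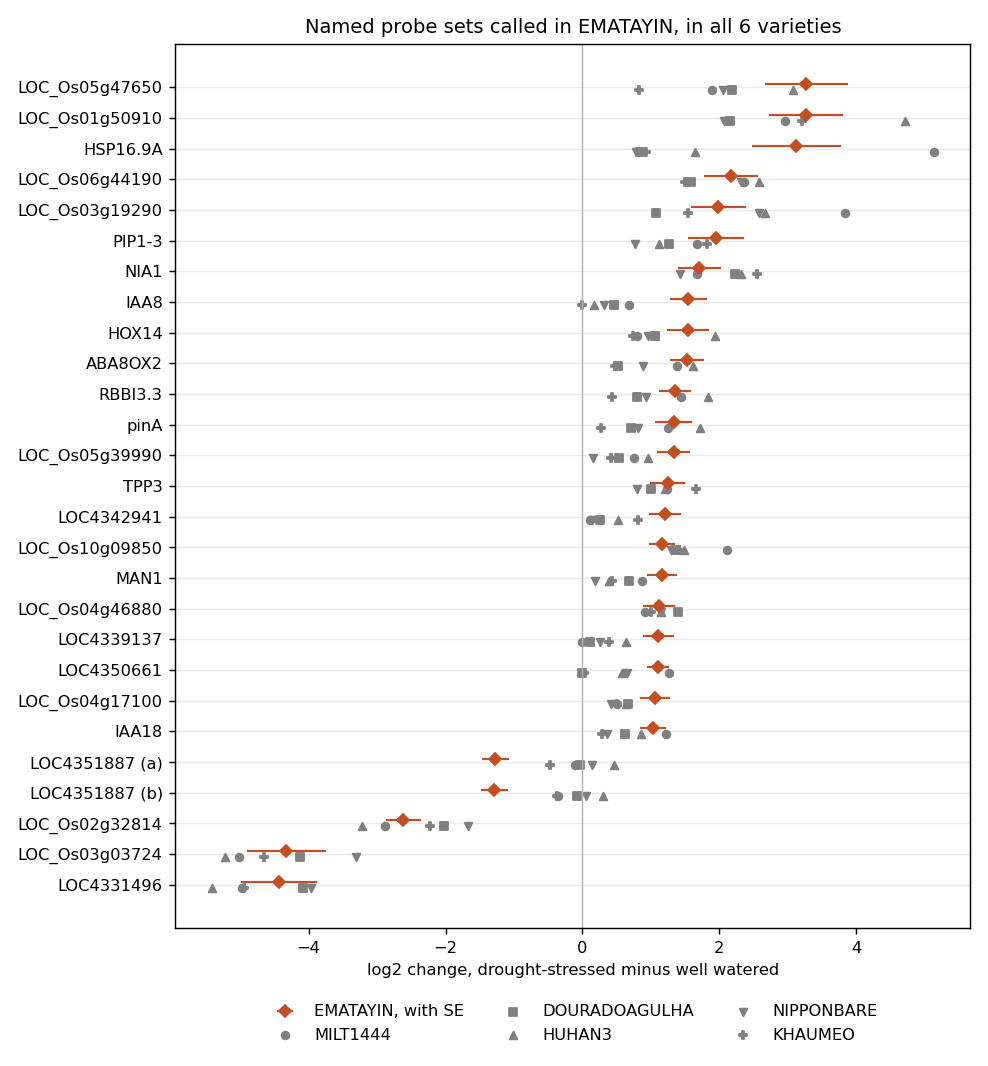
Log2 change, drought-stressed minus well watered, of each named probe set called in EMATAYIN, with 1 symbol for each of the 6 varieties and a bar for the SE of EMATAYIN. The 5 other varieties mostly lie on the same side of 0 as EMATAYIN, and for LOC4351887 they lie on both sides.

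The test of the difference between EMATAYIN and the mean of the other 5 varieties called 0 probe sets (0%) by limma, with 121 past an unadjusted p below 0.05 and a 2-fold difference, 81 of them higher and 40 lower in EMATAYIN. The smallest adjusted p belonged to LOC4325704, a gene of unstated function. It had 298, 228 and 239 in drought-stressed panicles, against 185, 186 and 190 in well watered panicles, a log2 change of 0.44 against -0.56 in the others, so that the difference was 0.9985 ± 0.155 (limma adjusted p = 0.0342), just short of 2-fold. LOC4343494 was at 0.74 in EMATAYIN and -0.01 in the others (limma adjusted p of the difference = 0.164). LOC_Os10g06000 was at 3.10 and -1.08 (0.265). Downward, both probe sets of LOC4351887 were at -1.27 and -1.29 in EMATAYIN and at 0.00 and -0.09 in the others, with limma adjusted p values of the difference of 0.0712 and 0.0994, and an unnamed probe set was at -0.42 and 0.24 (0.0712).

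Of the further genes that the study names, IAA18 and LOC_Os01g50910 were called in EMATAYIN, as given above. MADS26, a MADS-box factor gene, had a log2 change of 0.53 (limma adjusted p = 0.39) and the glutaredoxin gene GRX8 one of 0.61 (0.251). The MYB factor genes MYB1 and LOC_Os02g46030 were at 0.81 and 1.37 (limma adjusted p = 0.625 and 0.165). SAUR33 and SAUR20 were at -0.48 and 1.12 (limma adjusted p = 0.714 and 0.128). The SAUR genes encode small proteins that auxin induces. Without well watered replicate 3 the change of SAUR20 was 1.53 (limma adjusted p = 0.0119). That array held its highest well watered intensity, so leaving it out raises the change by construction. MYB1 was at -0.40 in the mean of the other 5 varieties.

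The count of calls moved with single arrays. Without well watered replicate 3, 111 probe sets rose (0.194%) and 21 fell (0.0367%), 31 of the 36 calls were kept, 5 were lost (pinA, LOC_Os04g46880, LOC_Os04g17100 and 2 unnamed probe sets), and 101 were added. Among the added were, besides the expansins and PP2C08, the pectin methylesterase inhibitor gene PMEI8 at 2.39 (limma adjusted p = 0.0284), the metallothionein gene MT2A at 1.81 (0.0289) and LOGL9, of the family that activates cytokinin, at 1.07 (0.0244), chosen after their values were seen. In all of these, and in HSP16.9B and TPP3, the omitted array held the highest well watered intensity, so that omitting it raises the change by construction. Leaving out any other array reduced the rises. They numbered 3 without drought-stressed replicate 1, 13 without replicate 2 and 19 without replicate 3, and 7 and 8 without well watered replicates 1 and 2. The falls numbered 4, 10, 8, 6 and 7 in the same omissions. The calls of LOC_Os03g03724, LOC4331496, LOC_Os02g32814, the unnamed probe set with a fall of 3.98 and the one with a rise of 2.65 were kept in every omission and every other processing tried.

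A further set of large values followed drought-stressed replicate 3. These probe sets were picked after their values were seen, and they carry no call. Altogether 33 uncalled probe sets were at least 4-fold higher under drought and 0 at least 4-fold lower, and 18 of the 33 were highest in drought-stressed replicate 3. In 16 of them the order of the drought-stressed arrays was replicate 3, then 1, then 2, an order that 15.1% of all probe sets had. For being highest in replicate 3 alone, no share over all probe sets was computed. A large change without a call goes with a wide spread, so an array that stands high is partly built into this choice. LOC_Os09g35700 had 1188, 497 and 2617 in drought-stressed panicles, against 24.3, 20.9 and 29.7 in well watered panicles. Every drought-stressed array was far above the well watered ones, yet the spread within the group was wide, and the log2 change was 5.55 ± 1.23 (limma adjusted p = 0.0675, and 0.0498 without well watered replicate 3). In the mean of the other 5 varieties it was at -0.17. RefSeq places the gene of this probe set on chromosome 7, not on the one the locus name gives, so its identity is uncertain.

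Of the 16, 11 had a mean change within 0.5 of 0 in the other varieties. LOC_Os01g49650, a lipid transfer domain gene, had 206, 80.1 and 547 under drought, against 22.9, 22.2 and 17.3 with water, and BC1L9, of the COBRA-like family of wall proteins, had 127, 45.5 and 840, against 35.1, 27.8 and 53.6. In both the third drought-stressed array was the highest. Of the 12 listed genes of the tapetum, the layer that feeds the pollen, and of the pollen wall, 8 were highest among the drought-stressed arrays in replicate 3 and 1, C6, was lowest there. The share of all probe sets with these ranks was not computed. The summed intensity of the 4 tapetum markers was 1007 to 1549 under drought and 1010 to 1309 with water. EAT1 had 125, 118 and 767 under drought, against 148, 141 and 157 with water, and TDR had 180, 181 and 387, against 177, 227 and 142. For WRKY38 the values were 52.8, 72.1 and 1063 under drought and 350, 35.3 and 35.2 with water. The part of these differences in other results was not tested.

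**Figure D5:**
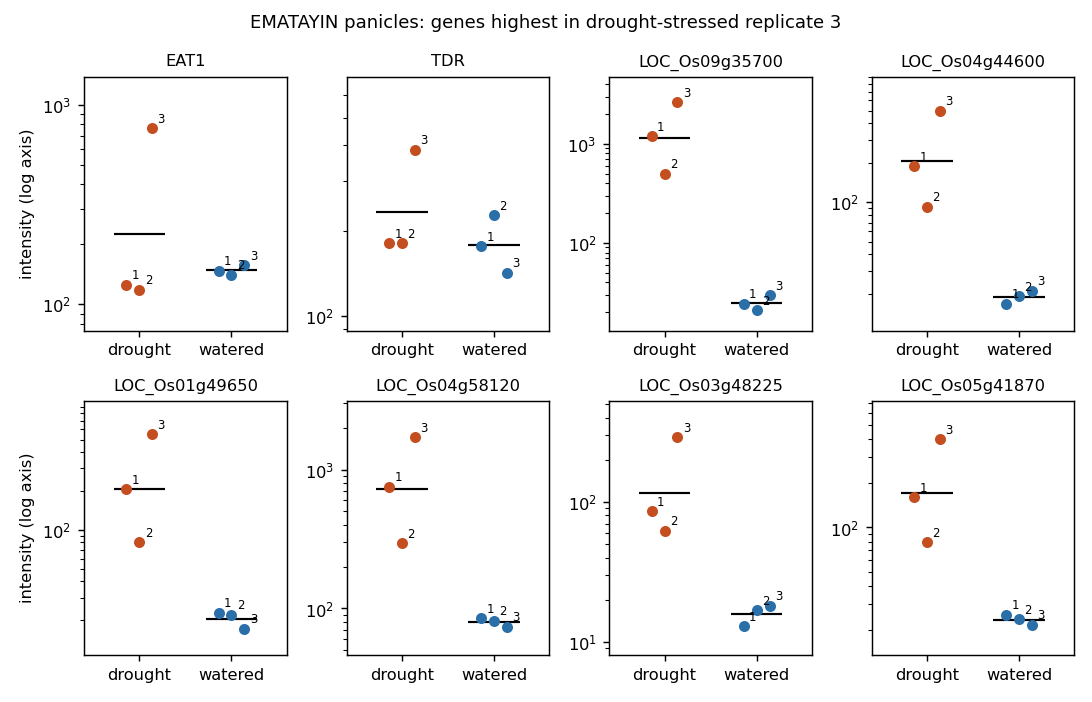
Intensity on a log axis of genes that were highest in drought-stressed replicate 3, in the 3 drought-stressed and 3 well watered EMATAYIN arrays, with replicate numbers beside the points and black lines at geometric means. The point of drought-stressed replicate 3 is at the top of the drought group in each panel, as for EAT1 at 767.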

How the data were processed

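Young panicles were profiled on the Affymetrix Rice Genome Array, and only the 6 EMATAYIN arrays are described, beside 30 arrays of 5 varieties. The submitters' processing notes name RMA, the affy package and limma. No version of them is stated there. The values deposited by the authors are intensities on a linear scale, where RMA normally gives log2, and no source used here states the step between them. Values of 1, the lowest intensity, occur 109 times. No value column was left out for belonging to another series. The authors' own fold changes, in a supplement, served only as a key that joins loci to probe sets.

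After removal of 187 controls, log2 intensities of 57194 probe sets were fitted in limma 3.58.1 (R 4.3.3, with data.table of version 1.17.8) with a mean per group, 12 in all, so that 36 arrays share the estimate of the spread. The contrasts were EMATAYIN drought-stressed minus EMATAYIN well watered, the mean of the same contrast over the other 5 varieties, and their difference. P values were adjusted by Benjamini-Hochberg over all probe sets, and a call needed an adjusted p of at most 0.05 and a 2-fold change. Alternatives were EMATAYIN fitted alone, a trended robust prior, brighter probe sets, a replicate block, scaling to ACT1, quantile normalization, 50 added before the log, other thresholds and each array left out.

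In the platform's annotation 22436 probe sets have 1 gene, 95 have more and 34663 have none. Names came from RefSeq synonyms. Of 783 loci, 756 were matched to 1 probe set through the fold-change key, and 579 of 584 with a RefSeq chromosome lie on the one the locus names. SAUR31 is not reported here. Named are called probe sets with a gene, up to 4 members a list with the largest change, the 3 differences each way with the smallest p, genes the paper names and dehydrins. Where a gene has several probe sets, the brightest stands for it. Probe sets ending in _s_at, _x_at or _a_at may share probes with other transcripts. The contrast, the 40 gene lists and the rules were chosen with earlier results of these data known. Promoters were not analysed here. Figures used pandas 2.3.3, numpy 2.4.6 and matplotlib 3.10.9.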

Additional observations from a re-analysis of the deposited data

Results flagged for a closer look

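LOC4325704 was the only probe set whose difference in drought response between EMATAYIN and the mean of the other 5 varieties had an adjusted p of at most 0.05, at 0.9985 on the log2 scale (limma adjusted p = 0.0342). It fell just short of the 2-fold threshold and so was not called. It was higher in 3 of 3 drought-stressed EMATAYIN arrays than in any well watered one, and lower in the mean of the others, where the 5 varieties ranged between -0.86 and -0.32.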

How the results depend on the processing

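Of 495 trials of the 36 called probe sets in which a call could be lost, 288 kept it and 207 lost it. In the 10 settings that recompute the change, 0 of 360 trials reversed the direction. For most of these settings that outcome was fixed, because the groups did not overlap in any of the 36. Leaving out an array, adding 50 or taking the ratio of mean linear intensities could not have reversed it. Only scaling to ACT1 and quantile normalization could have done so. Rises and falls, 29 and 7 as reported, numbered 1 and 4 with EMATAYIN fitted alone, 270 and 37 at unadjusted p, and 48 and 15 without a fold threshold. Falls were 4 among brighter probe sets and 4 with 50 added before the log. With the replicate number as a block there were 18 rises (13 of them among the 29) and 6 falls. After the group mean was subtracted from each array, drought-stressed and well watered arrays of the same number correlated at 0.02, -0.13 and -0.10. By this measure 0 of 3 matched its own number best, so the numbers were not taken to pair the arrays. Leaving out 1 array gave 3 to 111 rises and 4 to 21 falls. The difference from the other varieties, 0 calls as reported, gave 121 at unadjusted p, 1 without a fold threshold, 1 against the other 3 japonica varieties and 0 to 3 without 1 array. The 236 calls in the mean of the others were 106 with 50 added and 22898 without a fold threshold. Scaling to ACT1 set the median of all changes at 0.08, against -0.02, and gave 21 rises and 6 falls. The causes of these shifts were not tested. Dim probe sets, 3 arrays a group and a well watered array that stands apart limit small changes.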

Other observations

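Loci of chromosome 10 that the study's table describes as DUF1210 proteins, a family of unknown function, had unequal values in EMATAYIN, and they were chosen after their values were seen. LOC_Os10g06000 had 431, 355 and 818 in drought-stressed panicles, against 42.6, 132 and 35.5 in well watered panicles, with a log2 change of 3.10 ± 0.78 (limma adjusted p = 0.109), and a second probe set of that transcript gave 2.99. LOC_Os10g05750 was at 2.29. LOC_Os10g05950 and LOC_Os10g05790 were at 0.21 and 0.00. In the mean of the other 5 varieties LOC_Os10g06000, LOC_Os10g05950 and LOC_Os10g05790 were at -1.08, -1.42 and -0.97. Whether these probe sets share probes was not tested.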
